A study of Mus musculus with 14 samples.

Results

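Fatty acid oxidation and the target genes of the peroxisome proliferator-activated receptors (PPARs) were followed in mouse pancreatic islets as a list of 36 named genes. A gene was counted as measured where a probe set of the array carried its symbol and no other, and the brightest such probe set was used, which gave 33 of the 36 among 18820 genes in all. Cpt1b and Acadvl share their probe set with other symbols and Ucp2 had no probe set with a single symbol, so these 3 genes were not analysed here.

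RNA came from islets of 14 mice on the C57BL/6 background. All of them ate a high-fat diet (60% fat, with 20% carbohydrate and 20% protein) from 6 weeks of age, so every group carries the diet and no lean group was part of the comparison. The groups were wild type mice (WT) after 5 weeks (4 arrays), Tlr2/Tlr4 double knockout mice (DKO), in which the genes of Toll-like receptors 2 and 4 are knocked out, after 5 weeks (2 arrays), WT after 7 months (4 arrays) and DKO after 7 months (4 arrays). Mice at 7 months were also older, so time on the diet and age cannot be told apart. The series asks how these receptors of innate immunity act on the growth of β-cells under this diet.

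Fatty acids enter cells partly through carriers such as CD36, are bound by small fatty acid binding proteins, and are moved into mitochondria by the carnitine shuttle, where a spiral of 4 enzyme steps shortens them to acetyl-CoA. PPARs, nuclear receptors that bind fatty acids, drive many of these genes together with the coactivator PGC-1α (gene Ppargc1a), and pyruvate dehydrogenase kinases hold back the oxidation of glucose when fat is burned. In islets the β-cells use glucose oxidation to time insulin release, and fatty acids modify that release.

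The list did not move as a block. Between genotypes, Ppargc1a, Pdk4 and Acadl were lower in DKO at 7 months, while most other oxidation enzymes lay within a narrow range. Acadl was lower at 5 weeks too, a narrow call that rests on 2 DKO arrays and was lost when single arrays were left out. With time on the diet Pdk4 fell and Fabp4 rose in both genotypes. In DKO, by the test described below, Ppargc1a fell and Cd36, Pdk1, Pdk3, Slc25a20 and Ehhadh rose, the last only narrowly. These rising genes were also higher at 7 months in WT, by 0.32 to 0.74, but did not pass there. For none of them did a difference between the rises in DKO and WT pass. Values below are deposited log2 signals of the robust multi-array average (RMA), on which 1 unit is a doubling of signal. Differences carry the standard error (SE) of a limma fit, and a difference passed the test when its p-value, adjusted over all 18820 genes by Benjamini-Hochberg, was below 0.05.

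The 250 bases before the RefSeq start of 4 members are shown because the results turn on these genes: Ppargc1a, Pdk4 and Acadl for the genotype differences, and Cd36 for the change with time. All 4 genes lie on the minus strand of the mouse assembly GRCm38.p6, and each sequence reads 5′ to 3′ in the direction of the gene, upstream of its first exon. Ppargc1a lies at chr5:51567726-51567975, Pdk4 at chr6:5496279-5496528, Acadl at chr1:66863310-66863559 and Cd36 at chr5:17835897-17836146. Capitals mark the receptor hexamer AGGTCA, here on its other strand as TGACCT, and the core of the cyclic AMP response element, CGTCA.
Ppargc1a: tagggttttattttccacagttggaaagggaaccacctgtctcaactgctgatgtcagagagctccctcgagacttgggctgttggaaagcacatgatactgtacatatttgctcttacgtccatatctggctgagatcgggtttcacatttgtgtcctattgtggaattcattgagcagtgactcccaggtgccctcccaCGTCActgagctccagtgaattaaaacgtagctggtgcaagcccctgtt
Pdk4: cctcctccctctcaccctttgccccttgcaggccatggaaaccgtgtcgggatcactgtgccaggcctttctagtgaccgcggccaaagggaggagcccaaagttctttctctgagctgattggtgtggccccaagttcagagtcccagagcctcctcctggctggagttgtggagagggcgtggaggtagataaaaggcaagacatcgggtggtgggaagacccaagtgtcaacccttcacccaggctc
Acadl: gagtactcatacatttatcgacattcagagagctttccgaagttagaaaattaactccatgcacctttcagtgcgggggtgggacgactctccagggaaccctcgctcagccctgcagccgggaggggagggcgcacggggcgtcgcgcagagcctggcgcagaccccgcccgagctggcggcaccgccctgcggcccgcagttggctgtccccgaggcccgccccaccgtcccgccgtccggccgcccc
Cd36: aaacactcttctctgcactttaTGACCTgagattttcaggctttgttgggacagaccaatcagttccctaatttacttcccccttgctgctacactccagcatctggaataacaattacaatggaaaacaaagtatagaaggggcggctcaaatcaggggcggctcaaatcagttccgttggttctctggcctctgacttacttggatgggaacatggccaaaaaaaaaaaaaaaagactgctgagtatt

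The 4 stretches differ in base composition. The Acadl stretch holds 68% G and C and 25 CpG dinucleotides, against a median of 52.4% and 6 CpG over all windows, whereas the Cd36 stretch holds 43.2% and 3 CpG. Ppargc1a (48%, 5 CpG) and Pdk4 (58.8%, 6 CpG) lie between them. The Ppargc1a stretch holds CGTCA with its first base at -49, counted back from the gene's start, and the Cd36 stretch holds TGACCT with its first base at -228.

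Windows of 300 bases (250 before the start and 50 after it) were found for 29 of the 36 genes, 33 windows in all, and were searched on both strands with exact letters. The PPAR element AGGTCANAGGTCA stood in 0 of the 33 windows and in 0.0396% of all 32851 windows. The estrogen-related receptor element TCAAGGTCA stood in 0 of the 33 and in 0.423% of all. The hexamer AGGTCA, which is part of both longer motifs, stood in 8 of the 33 windows (7 genes: Acadm, Plin2, Cd36, Pparg, Ucp3, Acadvl and Cpt1a) and in 16.3% of all. CGTCA, with its other strand TGACG, was added to the search after the values were seen and stood in 11 of the 33 windows (11 genes) and in 20.8% of all. These counts describe the letters in these windows.

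The arrays were alike in scale, with medians between 3.89 and 3.98. The Tlr2 signal was between 6.22 and 6.62 on the 8 WT arrays, 4.77 and 4.82 in DKO at 5 weeks and 5.18 to 5.41 in DKO at 7 months, a fall of 1.66 ± 0.12 (limma adjusted p = 9.71e-06) and of 1.06 ± 0.10 (limma adjusted p = 1.61e-05). The Tlr4 probe set was dim in all groups (2.70 to 3.60) and was not lower in DKO. It read 2.79 to 2.90 in WT and 3.23 and 3.19 in DKO at 5 weeks, without overlap, a difference of 0.35 that did not pass (limma adjusted p = 0.506), and the difference was 0.31 at 7 months (limma adjusted p = 0.331), so this probe set does not check the label. The defining hormone genes were bright, with group means of 11.88 to 11.91 for Ins2, 12.09 to 12.95 for Gcg and 11.74 to 12.88 for Sst. The mean of 19 genes of acinar cells, the exocrine cells around islets, was 5.65 to 7.77 in WT and 8.01 and 8.47 in DKO at 5 weeks, and 4.89 to 7.89 in WT and 7.18 to 7.75 in DKO at 7 months. At 7 months DKO arrays also carried a different cell marker mix, where 4.71% of all genes passed between genotypes. Lower than in WT were 3 of 4 α-cell and 2 of 4 δ-cell markers, while 1 marker of each list was higher without passing. Higher than in WT were 7 of 12 markers of stellate cells, pericytes and fibroblasts and 4 of 16 macrophage markers. Of 14 endothelial markers 2 were higher and 1 was lower. With time, 2 of 4 α-cell and 1 of 4 δ-cell markers fell in WT, beside 2.37% of all genes past the threshold. In DKO 3 and 2 fell and 1 δ-cell marker, Lepr, rose, beside 7.57% of all genes. The mean of 10 β-cell markers was 10.91 to 10.97 on the 8 WT arrays, 10.87 and 10.88 in DKO at 5 weeks, and 10.75, 11.01, 10.72 and 10.71 in DKO at 7 months, with replicate 2 the highest of all arrays. The part of these shifts in the results below was not tested, and in whole islets fewer cells of a type and less RNA per cell cannot be told apart. Within DKO at 7 months, replicate 2 stood nearest to WT for Ppargc1a, Cd36 and Lpl, and these genes are also given without it. That array was picked after the values were seen, so an adjusted p without it describes the dependence on 1 array and is no separate test. Leaving it out can also narrow the spread shared by all groups, and with it the SE of comparisons that do not hold it.

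Counted over the list, 1 of 33 members passed between genotypes at 5 weeks (3.03%; 1 lower), beside 0.994% of all genes and 0.494% that were lower. Between genotypes at 7 months it was 3 of 33 (9.09%; all lower), beside 4.71% of all genes and 2.27% that were lower. With time in WT it was 2 of 33 (6.06%; 1 higher and 1 lower), beside 2.37% of all genes, 1.35% higher and 1.01% lower. With time in DKO it was 8 of 33 (24.2%; 6 higher and 2 lower), beside 7.57% of all genes, 4.86% higher and 2.7% lower. For the interaction, the change of the genotype difference between the times, it was 2 of 33 (both lower), beside 0.0903% of all genes and 0.0638% that were lower. These comparisons share their groups, and counts this small rest on single genes. The list was chosen with earlier results of these data known, so its shares are no test against those of all genes.

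The shares over all genes depend on the genes and arrays used. With genes left out that were dim in every group, 28 members and 11186 genes remained, and the shares over those genes were 2.41% at 5 weeks (2 members), 10.4% at 7 months (4), 4.96% with time in WT (3), 15.9% with time in DKO (8) and 0.42% for the interaction (2). When 1 array was left out at a time, the share of all genes ranged from 0.234% to 1.25% at 5 weeks, 2.81% to 8.93% at 7 months, 1.17% to 2.8% with time in WT, 2.01% to 10.9% with time in DKO and 0.0106% to 0.983% for the interaction. The highest of each came without replicate 2 of DKO at 7 months, and the lowest without replicate 1 of DKO at 5 weeks or of WT at 7 months (between genotypes at 7 months, equally low without replicate 2 of WT).

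The median log2 difference of the members lay near that of all genes in the pairwise comparisons, and furthest from it with time in WT. It was -0.04 against 0.01 at 5 weeks, -0.06 against 0.01 at 7 months, 0.12 against 0.03 with time in WT and 0.04 against 0.02 with time in DKO. With time in WT 23 of 33 members were higher and 10 lower, beside 10681 and 8139 of all 18820 genes. Members whose groups did not overlap numbered 11 at 5 weeks beside 21.6% of all genes, 6 at 7 months beside 10.6%, 10 with time in WT beside 11.6% and 12 with time in DKO beside 26.7%. Of these, 4 were higher and 7 lower at 5 weeks, 1 and 5 at 7 months, 9 and 1 with time in WT and 10 and 2 in DKO. Over all genes these splits were 2115 and 1944, 1007 and 988, 1486 and 689, and 2946 and 2080. Without replicate 2 of DKO at 7 months, the count of members not overlapping at 7 months was 14, beside 20.3% of all genes. Of the 33 members 10 varied by at least 1 log2 unit over the arrays, as did 17.2% of all genes, and the median range was 0.72 for members and 0.66 for all genes.

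**Figure D1:**
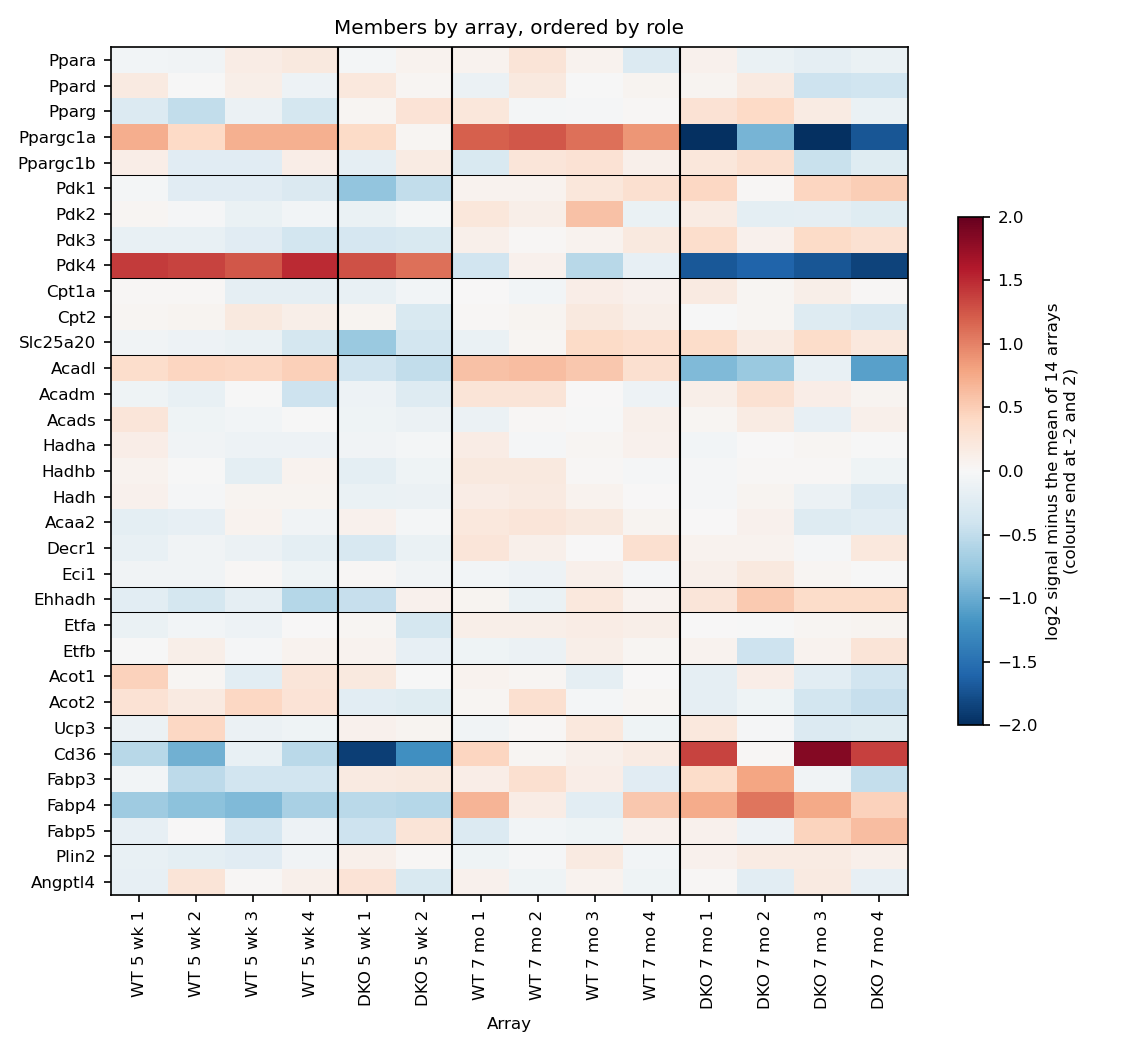
Signal of the 33 measured genes (rows, ordered by role) on the 14 arrays (columns), as log2 signal minus the gene's mean over the arrays, with colours ending at -2 and 2. Ppargc1a and Pdk4 are low in the 4 DKO arrays at 7 months, Pdk4 is high in all 6 arrays at 5 weeks, and Cd36 is highest in DKO replicates 1, 3 and 4 at 7 months.

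The coactivator Ppargc1a had the widest spread of all members, 3.85 log2 units over the 14 arrays. PGC-1α raises mitochondrial number and fat oxidation in muscle, liver and brown fat, and binds PPARs and other nuclear receptors. Its signals were 6.32, 6.00, 6.30 and 6.30 in WT at 5 weeks and 5.97 and 5.63 in DKO at 5 weeks. They were 6.79, 6.84, 6.69 and 6.48 in WT at 7 months and 3.47, 4.66, 2.99 and 3.88 in DKO at 7 months. The 4 DKO arrays at 7 months lay below all other arrays, with replicate 2 nearest to them.

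At 7 months the Ppargc1a mean was 6.70 ± 0.16 (SD, n = 4) in WT and 3.75 ± 0.71 (SD, n = 4) in DKO, 7.72-fold lower (log2 difference -2.95 ± 0.25, limma adjusted p = 6.87e-06; -3.25 ± 0.18 without DKO replicate 2). At 5 weeks the difference was -0.43 ± 0.31 and did not pass (limma adjusted p = 0.648), although both DKO arrays were below all 4 of WT. In DKO the gene fell by 2.05 ± 0.31 from 5 weeks to 7 months, 4.13-fold (limma adjusted p = 0.00107). In WT the later arrays were all above the earlier ones, by 0.47 ± 0.25, which did not pass (limma adjusted p = 0.422) except when the WT arrays were fitted alone (limma adjusted p = 0.0414). The genotype difference grew with time by -2.52 ± 0.40 (interaction, limma adjusted p = 0.0197).

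A second, dimmer probe set for Ppargc1a read 4.73, 3.98, 4.27 and 4.10 in WT at 7 months and 2.77, 2.74, 2.32 and 2.42 in DKO. The groups did not overlap there either, and the difference was -1.71 ± 0.25 (limma over all probe sets, adjusted p = 0.00122). On that probe set the change with time in DKO was -0.66 (adjusted p = 0.224) and the interaction -1.05 (adjusted p = 0.36), so neither passed. The interaction on the brighter probe set was also lost with the mean of both probe sets, with the replicate number as a block, with a minimum change of 1.2-fold, and when replicate 1, 2 or 3 of WT at 5 weeks, replicate 1 of DKO at 5 weeks or replicate 2 of WT at 7 months was left out. Its size in these refits stayed between -2.82 and -1.78, with adjusted p up to 0.201. The DKO mean at 7 months lies below the median of every array, where signals compress, so the size of the fall is not exact.

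The 4 other regulators did not pass in any of the 5 comparisons. Ppara, the receptor that governs fasting fat oxidation in liver, was dim throughout, between 2.85 and 3.38 and below the array median on all 14 arrays. Ppard, the widely expressed member of the family, read 6.71 to 7.33 and differed by -0.18 ± 0.13 between genotypes at 7 months (limma adjusted p = 0.508). Pparg, best known from fat cells, read 6.09, 5.88, 6.25 and 6.02 in WT and 6.40 and 6.64 in DKO at 5 weeks. Both DKO arrays were above all 4 of WT, a difference of 0.46 ± 0.15 that did not pass (limma adjusted p = 0.185), and at 7 months the groups overlapped (0.14 ± 0.12). Ppargc1b, the relative of Ppargc1a with similar mitochondrial targets, read 3.44 to 4.21 and differed by -0.11 at 7 months, with a 95% interval of -0.49 to 0.27.

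The kinases of pyruvate dehydrogenase went in opposite directions with time. These 4 enzymes phosphorylate and switch off the complex that turns pyruvate into acetyl-CoA, and Pdk4 is a classic PPAR target that rises with fasting in muscle. Pdk4 read 6.90, 6.84, 6.74 and 6.99 in WT and 6.77 and 6.59 in DKO at 5 weeks. Its signals at 7 months were 5.11, 5.58, 4.94 and 5.33 in WT and 3.80, 3.89, 3.79 and 3.65 in DKO. The 2 times did not overlap in either genotype, and at 7 months neither did the genotypes.

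Pdk4 fell with time by 1.63 ± 0.12 in WT, 3.09-fold (limma adjusted p = 7.37e-06), and by 2.90 ± 0.15 in DKO, 7.46-fold (limma adjusted p = 1.23e-07). Most markers of α- and δ-cells were lower at the later time as well. The δ-cell marker Lepr was higher in both genotypes and passed in DKO only. The α-cell marker Ttr was higher in DKO without passing (11.67 and 11.85, then 12.28, 11.60, 12.53 and 12.46). The median change over the 4 markers of each list was -0.55 and -0.45 in WT and -1.17 and -0.73 in DKO. The part of these cells in the Pdk4 falls was not tested. At 5 weeks the genotypes overlapped (-0.19 ± 0.15, limma adjusted p = 0.686). At 7 months the mean was 5.24 ± 0.28 (SD, n = 4) in WT and 3.78 ± 0.10 (SD, n = 4) in DKO, 2.75-fold lower (log2 difference -1.46 ± 0.12, limma adjusted p = 5e-06). The interaction was -1.27 ± 0.19 (limma adjusted p = 0.0177), and it was lost with the replicate block, with a minimum change of 1.2-fold, and without replicate 3 of WT or replicate 1 of DKO at 5 weeks (adjusted p up to 0.132). The DKO signals at 7 months lie at or below the array medians, so this fall too is not exact in size.

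Pdk1 read 6.39, 6.20, 6.20 and 6.14 in WT and 5.63 and 5.93 in DKO at 5 weeks. The later arrays gave 6.49, 6.50, 6.65 and 6.74 in WT and 6.83, 6.45, 6.85 and 6.92 in DKO. The later Pdk1 signals were above the earlier ones in both genotypes, and the step was 0.99 ± 0.14 in DKO, 1.98-fold (limma adjusted p = 0.000654), and 0.36 ± 0.11 in WT, which did not pass (limma adjusted p = 0.121). The difference between these steps was 0.62 ± 0.18 and did not pass (interaction, limma adjusted p = 0.213). Without replicate 2 of DKO at 7 months, the lowest of its group, it was 0.73 with adjusted p = 0.0388.

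Pdk3 rose in DKO from 5.78 and 5.82 at 5 weeks to 6.47, 6.21, 6.51 and 6.42 at 7 months, by 0.60 ± 0.10 or 1.51-fold (limma adjusted p = 0.00305). In WT it read 5.98, 5.98, 5.90 and 5.75, then 6.23, 6.15, 6.20 and 6.32, a non-overlapping step of 0.32 ± 0.08 that did not pass (limma adjusted p = 0.067). That step passed with dim genes left out, with array weights, and without replicate 2 of DKO at 7 months (limma adjusted p = 0.0343, 0.0315 and 0.0377). The Pdk3 call in DKO was lost when the DKO arrays were fitted alone and with a minimum change of 1.2-fold. Pdk2 read 7.24 to 8.08 and passed in no comparison, with -0.32 ± 0.13 between genotypes at 7 months (limma adjusted p = 0.21).

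**Figure D2:**
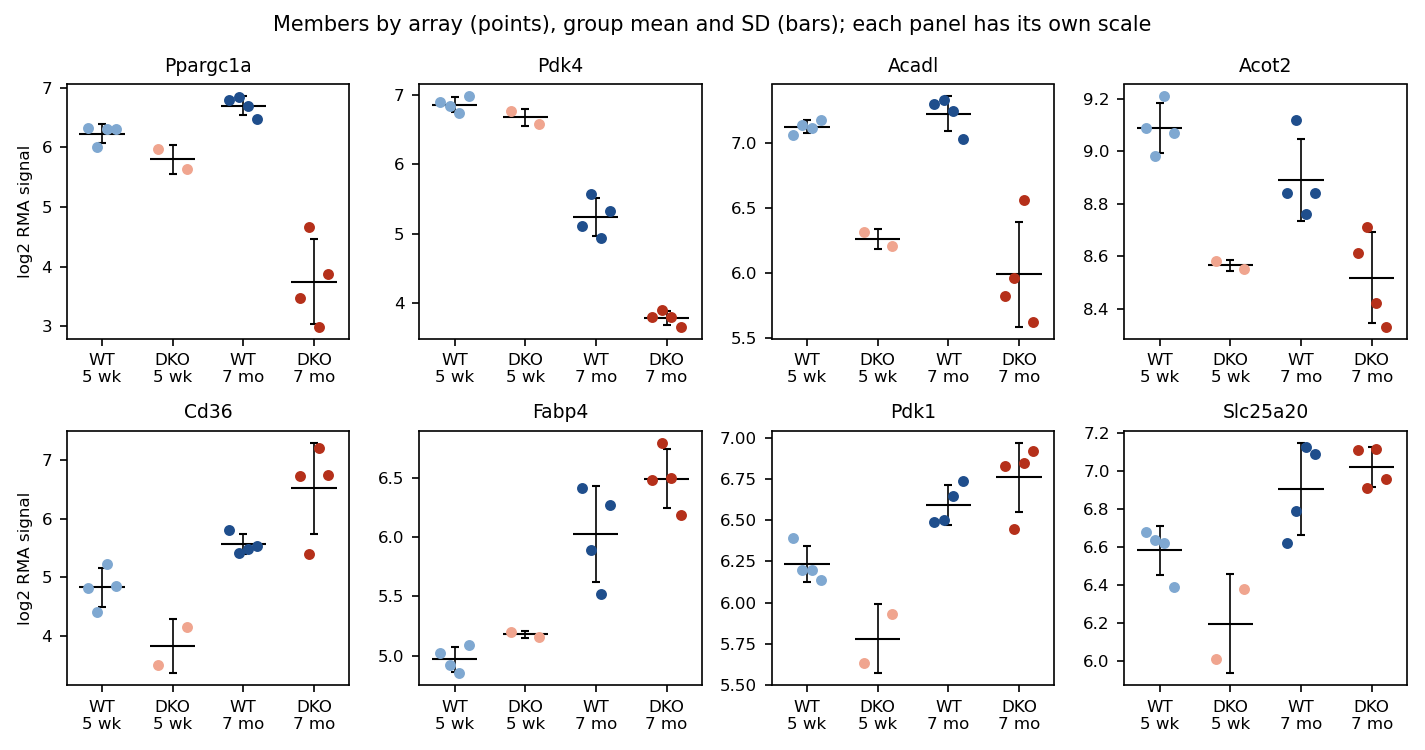
Log2 RMA signal (vertical axes, each panel with its own scale) of 8 members on every array, by genotype and time, with the group mean and SD as bars. For Ppargc1a and Pdk4 the 4 DKO arrays at 7 months lie below all others, for Acadl both DKO groups lie below both WT groups, and for Cd36 replicate 2 of DKO at 7 months lies with WT.

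Of the carnitine shuttle, 1 of 3 measured members passed in 1 comparison. The shuttle begins with Cpt1a, the liver-type carnitine palmitoyltransferase and the step that malonyl-CoA inhibits. Cpt1a was steady, from 7.40 to 7.76 over all arrays, and differed by 0.04 between genotypes at 7 months, with a 95% interval of -0.13 to 0.21. Cpt2, which releases the acyl group inside mitochondria, read 7.38, 7.42, 7.56 and 7.48 in WT and 7.35, 7.39, 7.10 and 7.04 in DKO at 7 months, and the difference of -0.24 ± 0.10 did not pass (limma adjusted p = 0.217).

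Slc25a20, the carrier that swaps acylcarnitine for carnitine across the inner membrane, read 6.68, 6.64, 6.62 and 6.39 in WT and 6.01 and 6.38 in DKO at 5 weeks. Readings at 7 months were 6.62, 6.79, 7.13 and 7.09 in WT and 7.11, 6.91, 7.12 and 6.96 in DKO. The DKO arrays were the lowest at 5 weeks and among the highest at 7 months, and the gene rose in DKO by 0.83 ± 0.15 or 1.78-fold (limma adjusted p = 0.00386). In WT the step was 0.32 ± 0.12 (limma adjusted p = 0.229). The call in DKO was lost without replicate 1 of DKO at 5 weeks, with adjusted p = 0.1 and a step of 0.65.

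Among the mitochondrial β-oxidation enzymes, 1 of 9 measured members passed a genotype comparison, and it passed at both times. Acadl encodes long-chain acyl-CoA dehydrogenase, which takes the first oxidation step on long and branched chains in mice. It read 7.06, 7.14, 7.12 and 7.18 in WT and 6.32 and 6.21 in DKO at 5 weeks. At 7 months it read 7.30, 7.33, 7.25 and 7.03 in WT and 5.82, 5.96, 6.56 and 5.62 in DKO. Every DKO array was below every WT array, across both times.

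Acadl was 1.82-fold lower in DKO at 5 weeks (log2 difference -0.87 ± 0.19, limma adjusted p = 0.0388) and 2.36-fold lower at 7 months (-1.24 ± 0.15, limma adjusted p = 0.000236). The 5 week call rests on 2 DKO arrays: it was lost when any 1 of 9 arrays was left out, the 6 arrays at 5 weeks among them (adjusted p up to 0.207), and with the replicate block, the acinar score or array weights in the model. Its size in these refits stayed between -0.92 and -0.81, and the 7 month call was kept in all 26 refits. With time Acadl did not pass in either genotype (-0.27 in DKO, limma adjusted p = 0.436), nor did the interaction (-0.37, limma adjusted p = 0.655). Without replicate 3 of DKO at 7 months the change in DKO was -0.46 and passed (limma adjusted p = 0.0445).

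The 8 other measured enzymes of the spiral did not pass in any comparison. Acadm and Acads, the medium-chain and short-chain dehydrogenases, differed between genotypes at 7 months by 0.05 (95% interval -0.18 to 0.29) and 0.04 (-0.17 to 0.24). Hadha and Hadhb, the 2 subunits of the trifunctional protein that works on long chains, differed by -0.06 ± 0.07 and -0.12 ± 0.08. Hadha was among the steadiest members, from 8.98 to 9.22. These intervals leave room for small differences and not for one of the size seen for Acadl at the same time.

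Hadh, the short-chain 3-hydroxyacyl-CoA dehydrogenase that is abundant in β-cells and whose loss in people causes excess insulin release, was the brightest member. It read 11.56, 11.45, 11.52 and 11.52 in WT and 11.34 and 11.35 in DKO at 5 weeks. Both DKO arrays were lower, by 0.17 with a 95% interval of -0.38 to 0.04 for DKO minus WT, and at 7 months the difference was -0.19 ± 0.08 (limma adjusted p = 0.212). Acaa2, the thiolase that closes the spiral, differed by -0.26 ± 0.10 at 7 months (limma adjusted p = 0.137). Decr1, the reductase needed for polyunsaturated chains, stood higher at 7 months than at 5 weeks without overlap in both genotypes, by 0.30 in WT (limma adjusted p = 0.0941) and 0.31 in DKO (0.0929), which did not pass. Eci1, the isomerase for unsaturated chains, stayed between 4.94 and 5.24.

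Ehhadh, the bifunctional enzyme of peroxisomal β-oxidation and a PPARα target in liver, read 5.59 and 6.15 in DKO at 5 weeks and 6.30, 6.58, 6.42 and 6.42 at 7 months. The step of 0.56 ± 0.15 or 1.47-fold passed narrowly (limma adjusted p = 0.0402) and was lost in 15 of 26 refits, with adjusted p up to 0.629. In WT the step was 0.38 ± 0.12 without overlap (5.48 to 5.87, then 5.93 to 6.26), and it did not pass (limma adjusted p = 0.152). Etfa and Etfb, the subunits of the flavoprotein that takes electrons from the acyl-CoA dehydrogenases, passed in no comparison. At 7 months the 4 DKO arrays for Etfa (6.65 to 6.71) were below the 4 of WT (6.77 to 6.81), by 0.10 with a 95% interval of -0.28 to 0.08 for DKO minus WT.

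Acot2, a mitochondrial thioesterase that splits long-chain acyl-CoA, came close to the threshold in both genotype comparisons. It read 9.09, 8.98, 9.21 and 9.07 in WT and 8.58 and 8.55 in DKO at 5 weeks. After 7 months the signals were 8.84, 9.12, 8.76 and 8.84 in WT and 8.61, 8.71, 8.42 and 8.33 in DKO. The DKO arrays were below those of WT at both times, by -0.52 ± 0.12 (limma adjusted p = 0.0652) and -0.37 ± 0.10 (limma adjusted p = 0.0502). Both differences passed when dim genes were left out (adjusted p = 0.0378 and 0.0293). Acot1, its cytosolic near-copy, stayed dim (2.23 to 3.08), and signals of such close relatives can mix on arrays. Ucp3, an inner membrane carrier of muscle, was also dim (2.25 to 2.94).

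Among the genes of uptake and binding, Cd36 moved most. CD36 is a scavenger receptor that brings long-chain fatty acids into fat, muscle, endothelial cells and macrophages. It read 4.82, 4.41, 5.22 and 4.84 in WT and 3.49 and 4.15 in DKO at 5 weeks. Signals after 7 months were 5.81, 5.42, 5.48 and 5.54 in WT and 6.73, 5.40, 7.21 and 6.74 in DKO. The DKO arrays were the lowest at 5 weeks, and 3 of 4 were the highest at 7 months, while replicate 2 read 5.40, just under WT.

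Cd36 rose in DKO from 3.82 ± 0.47 (SD, n = 2) to 6.52 ± 0.78 (SD, n = 4), by 2.70 ± 0.36 or 6.49-fold (limma adjusted p = 0.000537; 3.07 without DKO replicate 2 at 7 months), and the rise was kept in all 26 refits. The DKO mean at 5 weeks lies below the median of every array, so the fold is not exact. In WT the later arrays were all higher as well, by 0.74 ± 0.30, which did not pass (limma adjusted p = 0.263) except with the WT arrays fitted alone (adjusted p = 0.0333) or without replicate 2 of DKO at 7 months (adjusted p = 0.0479). Between genotypes the difference was -1.001 ± 0.364 at 5 weeks (limma adjusted p = 0.262) and 0.96 ± 0.30 at 7 months (limma adjusted p = 0.0825). Neither passed, nor did the interaction of 1.96 ± 0.47 (limma adjusted p = 0.15, 95% interval 0.96 to 2.97). Without replicate 2 of DKO at 7 months all 3 passed, with -1.001 (adjusted p = 0.0458), 1.34 ± 0.20 (adjusted p = 0.00105) and 2.34 (adjusted p = 0.00258). The 5 week groups do not hold that array, so their difference kept its size and only its SE fell, from 0.364 to 0.223. That array also read nearest to the WT arrays for Ppargc1a and lowest of its group for Pdk1, and for Cd36 the call between genotypes in the main fit depends on it. With all arrays kept and array weights in the model, the 7 month difference was 1.16 ± 0.26 and passed (limma adjusted p = 0.0158).

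Fabp4, the fatty acid binding protein of fat cells, macrophages and capillary endothelium, rose with time in both genotypes. It read 5.02, 4.92, 4.85 and 5.09 in WT and 5.20 and 5.16 in DKO at 5 weeks. At 7 months it read 6.42, 5.89, 5.52 and 6.27 in WT and 6.48, 6.80, 6.50 and 6.19 in DKO. The times did not overlap, and the rise was 1.05 ± 0.17 in WT, 2.08-fold (limma adjusted p = 0.00367), and 1.32 ± 0.21 in DKO, 2.49-fold (limma adjusted p = 0.00144). Between genotypes at 7 months the difference was 0.47 ± 0.17 (limma adjusted p = 0.136).

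Markers of the cells known to carry Cd36 and Fabp4 moved in part along with them over time. The mean of 14 endothelial markers was 6.68 to 6.85 in WT and 6.62 and 6.85 in DKO at 5 weeks, then 6.93 to 7.01 in WT and 7.06 to 7.26 in DKO at 7 months. Of the 14, 2 rose with time in WT (Plvap by 0.71 and Tek by 0.58) and 4 in DKO (Plvap by 0.96, Tek by 0.96, Cdh5 and Vwf). Over all genes 2.37% passed with time in WT and 7.57% in DKO. Cldn5 was below the array median on every array. The mean of 16 macrophage markers was 4.70 to 4.96 in all groups but DKO at 7 months, where it was 4.88 to 5.51; 0 of the 16 passed with time in WT (1 at an unadjusted p below 0.05 in limma) and 4 rose in DKO. The macrophage markers Cd14, Itgam, Mrc1, Cd163 and Aif1 were below the median on every array. Of 7 measured adipocyte markers 6 (Adipoq, Plin1, Lep, Cidec, Retn and Pck1) were below the median on every array, and their list mean stayed between 2.86 and 3.13 in all groups. Replicates 1 to 4 of DKO at 7 months read 6.73, 5.40, 7.21 and 6.74 for Cd36. Their list means were 7.06, 7.17, 7.08 and 7.26 for endothelial and 4.88, 5.10, 5.04 and 5.51 for macrophage markers. The part of endothelial cells and macrophages in the Cd36 and Fabp4 results was not tested.

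**Figure D3:**
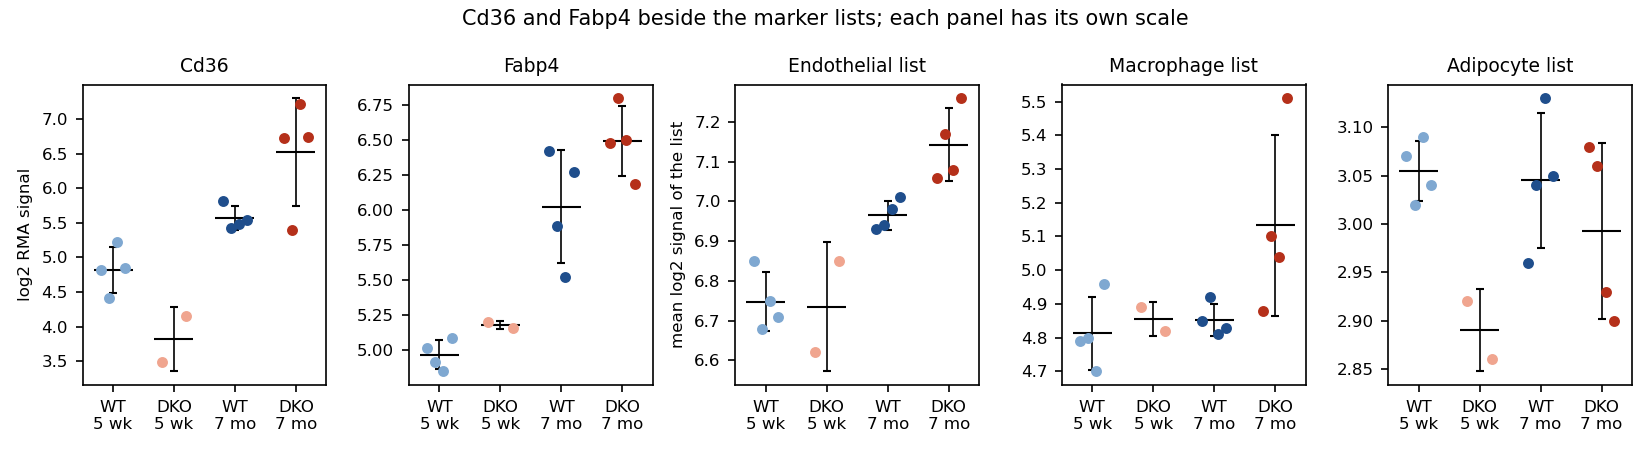
Log2 RMA signal of Cd36 and Fabp4 and the mean log2 signal of the endothelial (14 genes), macrophage (16) and adipocyte (7) marker lists on every array, by genotype and time, with group mean and SD as bars and a separate scale in each panel. The endothelial list is higher at 7 months in both genotypes, the macrophage list has its highest array in DKO at 7 months (5.51), and the adipocyte list stays between 2.86 and 3.13.

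The remaining members of this kind passed in no comparison. Fabp3, the heart-type binding protein, read 6.05, 5.57, 5.71 and 5.71 in WT and 6.28 and 6.29 in DKO at 5 weeks, without overlap and with a difference of 0.52 ± 0.26 (limma adjusted p = 0.442). At 7 months its groups overlapped. Fabp5, the epidermal type, was dim (3.18 to 4.21) and differed by 0.35 ± 0.17 at 7 months (limma adjusted p = 0.281). Plin2, the coat protein of lipid droplets, read 6.58 to 6.73 in WT and 6.90 and 6.83 in DKO at 5 weeks, a difference of 0.23 ± 0.10 (limma adjusted p = 0.343). Angptl4, a secreted inhibitor of lipoprotein lipase and a PPAR target, was dim on all 14 arrays (3.32 to 3.90).

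**Figure D4:**
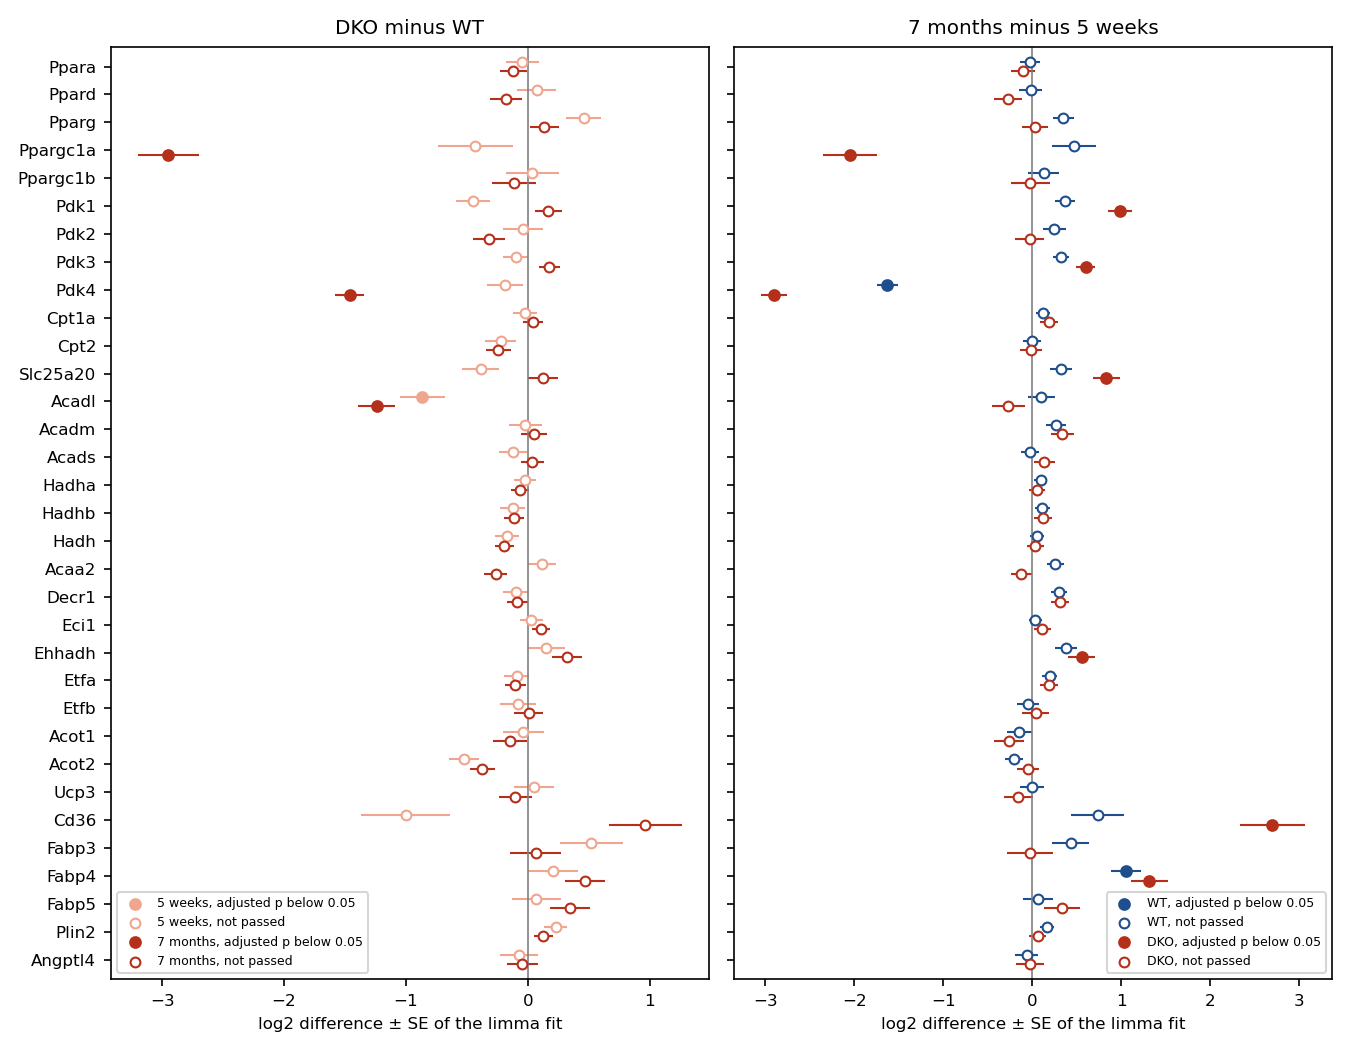
Log2 difference with its SE from the limma fit (horizontal axes) for the 33 measured members, DKO minus WT at 5 weeks and 7 months (left) and 7 months minus 5 weeks in WT and DKO (right). Filled points passed at adjusted p below 0.05, and most open points lie within 0.5 of 0. The left and right panels use the same 4 groups and are not independent.

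Other genes of the same pathways were listed by role, 124 in all, of which 112 were measured. At 5 weeks 1 of the 112 passed (0.893%), beside 0.994% of all genes. At 7 months 8 did, 4 higher and 4 lower (7.14%), beside 4.71% of all genes. For the interaction 0 did in limma, beside 0.0903% of all genes, with 13 at an unadjusted p below 0.05. Without replicate 2 of DKO at 7 months, 18 passed at 7 months (8 higher and 10 lower, beside 8.93% of all genes) and 2 for the interaction (beside 0.983%). The nuclear receptor partners and coregulators, such as Rxra, which pairs with PPARs, held 0 of 22 past the threshold at 7 months. This stands beside 4.71% of all genes, and 6 of the 22 had an unadjusted p below 0.05 in limma.

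Vnn1, a pantetheinase that recycles a precursor of coenzyme A and a PPARα target in liver, passed at both times and was higher in DKO. It read 2.97, 3.01, 2.71 and 2.78 in WT and 3.68 and 3.89 in DKO at 5 weeks. At 7 months it read 3.18, 2.93, 2.81 and 3.11 in WT and 4.91, 4.85, 5.09 and 5.45 in DKO. All DKO arrays were above all WT arrays, by 0.92 ± 0.16 or 1.89-fold at 5 weeks (limma adjusted p = 0.0134) and by 2.07 ± 0.13 or 4.19-fold at 7 months (limma adjusted p = 6.96e-07). WT signals lie below the array medians, so the folds are not exact, and the interaction of 1.15 ± 0.21 did not pass (limma adjusted p = 0.053) except without replicate 2 of DKO at 7 months (1.22, adjusted p = 0.0149).

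Lpl, the lipoprotein lipase that frees fatty acids from circulating triglyceride, read 8.09, 8.31, 8.33 and 8.01 in WT and 7.97 and 7.69 in DKO at 5 weeks. After 7 months Lpl read 7.05, 7.53, 7.13 and 6.97 in WT and 5.54, 6.48, 4.90 and 5.63 in DKO. The gene fell with time by 1.02 in WT (2.02-fold, limma adjusted p = 0.037) and by 2.19 ± 0.29 in DKO (4.58-fold, limma adjusted p = 0.000503). At 7 months it was 2.89-fold lower in DKO (-1.53 ± 0.24, limma adjusted p = 0.00189), with replicate 2 again nearest to WT. Without that array it was -1.81 ± 0.18 (adjusted p = 3.56e-05). The interaction of -1.18 did not pass (limma adjusted p = 0.271), and without that array it was -1.46 and passed (adjusted p = 0.0208).

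The other 6 that passed at 7 months changed less. Scp2, a peroxisomal thiolase and sterol carrier, was higher in DKO by 0.37 ± 0.09, Acad8, an enzyme of valine breakdown, by 0.50 ± 0.12, and Pecr, a peroxisomal enoyl-CoA reductase, by 0.62 ± 0.16 with overlapping groups. Abcd2, a peroxisomal carrier of very long acyl chains, was lower by -0.46 ± 0.11, Slc27a2, an uptake protein and acyl-CoA synthetase, by -0.53 ± 0.14 and Lipe, the hormone-sensitive lipase, by -0.31 ± 0.08. Their limma adjusted p lay between 0.0225 for Acad8 and 0.0489 for Slc27a2, so all 6 are near the threshold. Without replicate 2 of DKO at 7 months the Lipe difference was -0.28 and did not pass (adjusted p = 0.0633).

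**Figure D5:**
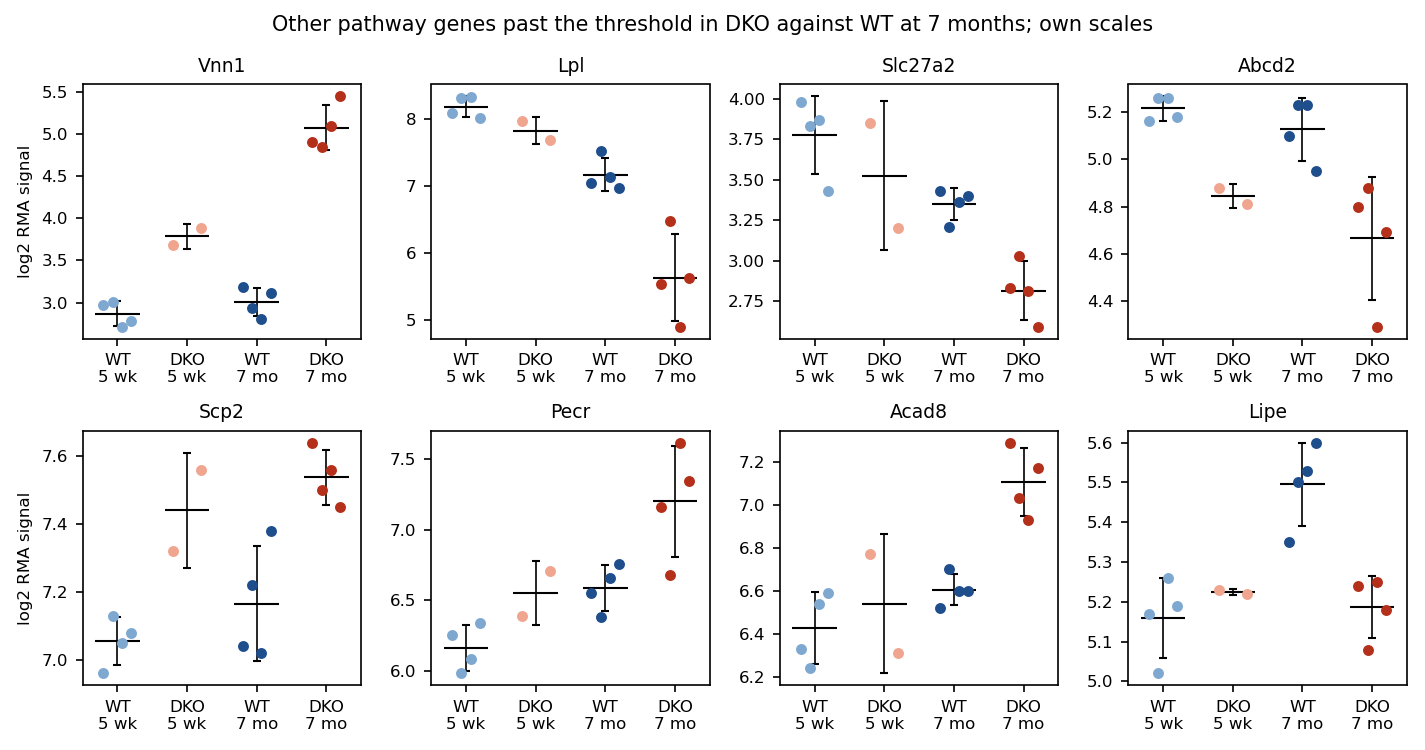
Log2 RMA signal (vertical axes, own scale per panel) on every array for the 8 other pathway genes past the threshold in DKO against WT at 7 months, with group mean and SD as bars. Vnn1 is higher in DKO at both times, Lpl declines in both genotypes and is lowest in DKO at 7 months, and the other 6 differ by less than 0.7 log2 units.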

How the data were processed

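RNA of pancreatic islets from 14 mice, 1 mouse per sample by the wording of the labels, was hybridised to whole-transcript arrays from 100 ng of total RNA. Values were used as deposited: RMA output on a log2 scale, per the submitters' processing notes. The sources used here give no RMA version. The number of arrays limits the precision. Of 35556 probe sets 21218 carried 1 symbol, 1881 several and 12457 none. The brightest single-symbol probe set per gene gave 18820 genes, 18790 of them matched by Entrez identifier. All value columns were matched to samples, leaving 0 unmapped.

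A mean per group was fitted over all arrays with limma 3.58.1 in R 4.3.3 (lmFit, contrasts, eBayes), with 5 comparisons and Benjamini-Hochberg adjustment over all genes within each, judged at 0.05. The p-values measure the spread between these samples. Intervals are at 95%. The fit was tested on simulated data with independent noise and these group sizes. The simulation held no batch, no shift in cell mix and no deviating array, so it does not speak to these. Every member is named. Of the other pathway genes those past the threshold in a genotype comparison or the interaction are named, at most 4 per list and comparison by smallest p. The members and all lists were chosen with earlier results of these data known.

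Replicate numbers repeat across groups, but the mice are separate, and the numbers were not used to pair samples in the main fit. Same-numbered deviations from the group means correlated between -0.163 and 0.158, which cannot exclude a shared batch in groups this small. Odd replicate numbers carry the number 5 in the sample descriptions and even ones 7. The letters of the sample descriptions follow the groups and are not explained there, so letters and groups cannot be told apart. The 25 or 26 refits per call changed the arrays fitted, the prior, the dim-gene filter, the probe sets, the scaling, covariates, weights and minimum fold, or left out an array. Promoter sequences are those of RefSeq (GRCm38.p6). Figures were drawn with matplotlib 3.10.9 in Python 3.11.15.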

Additional observations from a re-analysis of the deposited data

Results flagged for a closer look

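In 4 of 99 groups of 4 arrays 1 array lay far from the other 3 by Dixon's criterion (4.04%, where chance gives about 5 in 100). Ppargc1a read 6.00 in WT replicate 2 at 5 weeks and 6.30 to 6.32 in the others. Pdk2 read 7.65 in DKO replicate 1 at 7 months, against 7.24 to 7.31. Hadha read 9.21 in WT replicate 1 at 5 weeks, against 8.98 to 9.01. Ucp3 read 2.94 in WT replicate 2 at 5 weeks, against 2.41 to 2.44, all of them below the array median.

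The genotype difference changed between 5 weeks and 7 months for 2 members by limma's interaction term, by -2.52 for Ppargc1a (adjusted p = 0.0197) and by -1.27 for Pdk4 (adjusted p = 0.0177). These calls were lost in 8 of 25 refits for Ppargc1a and in 4 of 25 for Pdk4. On the second Ppargc1a probe set the interaction was -1.05 and did not pass (limma over all probe sets, adjusted p = 0.36). Both genes were lower in all 4 DKO arrays than in all 4 WT arrays at 7 months.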

How the results depend on the processing

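No call of a member changed sign in any refit. At 7 months the calls of Ppargc1a, Pdk4 and Acadl were kept in all 26 refits, as were Pdk4 and Fabp4 with time in WT and Ppargc1a, Pdk1, Pdk4, Cd36 and Fabp4 with time in DKO. Refits that left out an array outside a comparison kept its difference and could change only its SE and adjusted p. The refit over all probe sets still read the brightest probe set of each gene. On the second Ppargc1a probe set the change with time in DKO did not pass (-0.66, limma over all probe sets, adjusted p = 0.224).

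Counts of members past the threshold moved as follows. For genotype at 5 weeks, 1 became 2 with a trended robust prior and with dim genes left out, and 0 with the replicate block, the acinar score, array weights or a minimum change of 1.2-fold (6, 5, 7 and 3 members at an unadjusted p below 0.05 in limma). At 7 months 3 became 5 with array weights. With time in WT 2 became 4 with array weights or with the WT arrays alone, and in DKO 8 became 5 at 1.2-fold. For the interaction 2 became 1 with the mean of probe sets and 0 with the replicate block or at 1.2-fold (5 and 4 unadjusted). Fitting the interaction on fewer groups was not run, since it needs all of them. Leaving out 1 array at a time gave 0 to 3 at 5 weeks, 3 to 5 at 7 months, 2 to 4 and 6 to 8 with time in WT and DKO and 0 to 4 for the interaction, and non-overlapping members of 11 to 20, 6 to 14, 10 to 15 and 12 to 19, where the share of all genes not overlapping went from 21.6% to 52.5%, 10.6% to 20.3%, 11.6% to 17% and 26.7% to 53.8%. Those fits that drop an array of DKO at 5 weeks take the spread of its lone array from the remaining groups.

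The replicate block changed no other count of members by over 1.5 times. Over all genes, counts moved with a minimum change of 1.2-fold (187 to 33 at 5 weeks, 887 to 146 at 7 months, 446 to 68 with time in WT, 1424 to 311 in DKO and 17 to 0 for the interaction) and with the compared arrays alone (120, 488, 570 and 347). Leaving out 1 array at a time gave 44 to 236, 528 to 1681, 221 to 527, 378 to 2051 and 2 to 185, the highest without replicate 2 of DKO at 7 months. They were 121, 817, 352, 864 and 10 with the replicate block, 100, 599, 292, 959 and 19 with the acinar score, and 135, 1309, 786, 1134 and 28 with array weights. With a trended robust prior they were 282 at 5 weeks and 46 for the interaction, and with dim genes left out 47 for the interaction. Centring arrays on their medians moved the split at 7 months from 460 higher and 427 lower to 674 and 294, and with time in DKO from 915 and 509 to 1283 and 402, and for the interaction from 5 and 12 to 14 and 10. Of the 33 members 9 have a group mean below all array medians, where differences are compressed, and 2 arrays of DKO at 5 weeks limit every comparison that uses them.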

Other observations

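Beyond the genes named between genotypes, 6 of 112 other pathway genes passed with time in WT (5 higher, 1 lower) and 14 in DKO (11 higher, 3 lower), beside 2.37% and 7.57% of all genes. Without replicate 2 of DKO at 7 months 22 passed in DKO, beside 10.9%. The following genes were chosen after their values were seen. Acsl6, an acyl-CoA synthetase, rose in both genotypes, from 5.37 to 5.49 at 5 weeks to 5.80 to 6.02 at 7 months in WT, by 0.50 ± 0.09 (limma adjusted p = 0.00804), and by 0.56 ± 0.11 in DKO (limma adjusted p = 0.00665). Pnpla3, a lipid droplet protein, also rose in both, by 0.55 ± 0.12 in WT (limma adjusted p = 0.0252) and 0.60 ± 0.15 in DKO (limma adjusted p = 0.0215).

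Esrrg, the estrogen-related receptor γ that works with PGC-1α, read 6.54, 6.34, 6.65 and 6.26 in WT at 5 weeks and 7.19, 7.02, 7.20 and 6.81 at 7 months, and it rose by 0.61 ± 0.14 (limma adjusted p = 0.0318). In DKO it read 6.31 and 6.41 at 5 weeks and 6.47, 7.00, 6.43 and 6.38 at 7 months. The genotype difference at 7 months was -0.49 and did not pass (limma adjusted p = 0.0591), with replicate 2 of DKO inside the WT range. Without that array it was -0.63 ± 0.11 and passed (adjusted p = 0.00397). Mgll, the monoglyceride lipase that completes lipolysis, read 5.49 and 6.11 in DKO at 5 weeks and 6.62, 6.53, 6.83 and 6.65 at 7 months, and it rose by 0.86 ± 0.20 or 1.81-fold (limma adjusted p = 0.0192). In WT it read 6.11, 5.53, 5.61 and 5.53 at 5 weeks and 6.17, 6.06, 5.85 and 6.50 at 7 months, a difference of 0.45 ± 0.17 that did not pass (limma adjusted p = 0.206), and the difference between the steps did not pass (0.40 ± 0.26, interaction, limma adjusted p = 0.66).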
